A study of Mus musculus with 6 samples.

Results

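The transcripts described here encode proteins of the complement system in whole mouse kidney: C1qa, C1qb and C1qc, the chains of C1q; C2 and C4b, which form the classical convertase; C3; Cfb, factor B; and C3ar1 and C5ar1, the receptors of the released fragments C3a and C5a. They were chosen by name, as transcript clusters (the array's unit, a set of probes summarised to 1 value) to which the platform annotation gives a single gene symbol, with the cluster of the highest mean kept per gene. Of the 9 genes so named 8 had a cluster, out of 22086 genes tested. C3, the central protein of the cascade, had no cluster with its symbol in the annotation used and was not analysed here. All 8 passed the filter on low values, which left out clusters with a mean at or under 4.03 log2 units. None of the 9 is an inhibitor of complement, and inhibitors are described further on among the wider pathway.

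Complement is a cascade of plasma and tissue proteins that tags targets for uptake and can lyse cells. C1q binds antibody or altered surfaces and starts the classical pathway, in which C4 and C2 are cleaved into an enzyme that splits C3. Factor B builds the corresponding enzyme of the alternative pathway. In tissue C1q is made largely by macrophages, and kidney tubule cells can make several of the other components themselves.

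RNA was taken from the kidneys of 6 female mice, all of them Pkd1 miR transgenics, in which a transgene is directed against the polycystic kidney disease gene Pkd1. Metformin, a biguanide drug for diabetes, was injected intraperitoneally at 150 mg per kg per day in 3 mice, and saline was injected in 3. Injections ran from postnatal day 35 to postnatal day 63, the day of tissue collection, so every animal was of the same age. No mouse without the transgene was part of the series, and the labels name no promoter for it. Values are log2 expression as deposited, with array medians between 4.67 and 4.86, and each change is the metformin mean minus the saline mean, from limma fitted to all 22086 genes with Benjamini-Hochberg adjustment and a threshold of 0.05. The kidney identity of the tissue showed in proximal tubule markers such as Slc34a1, the sodium phosphate transporter, which lay between 18.15 and 18.69 log2 units on all 6 arrays. In whole-kidney RNA a lower number of cells of one type and a lower level of RNA per cell cannot be told apart.

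The comparison asks how complement transcripts differ between metformin and saline in this model. Factor B transcript was lower in the metformin kidneys and was the only one of the 8 past the threshold. C2 lay lower too on every metformin array but missed the threshold. The C1q chains, C4b and both receptors had higher means in metformin kidneys, none of them past the threshold, with changes of 0.19 for C5ar1 up to 1.07 for C3ar1. Of the 8 genes 0 rose and 1 fell, where 6.71% and 9.08% of all genes tested did. At an unadjusted p under 0.05 there were 3, against 32.1% of all genes. The groups did not overlap in 3 of the 8, which is close to the 37.3% of all genes. The median change of the 8 was 0.41, beside 0.02 for all genes.

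**Figure D1:**
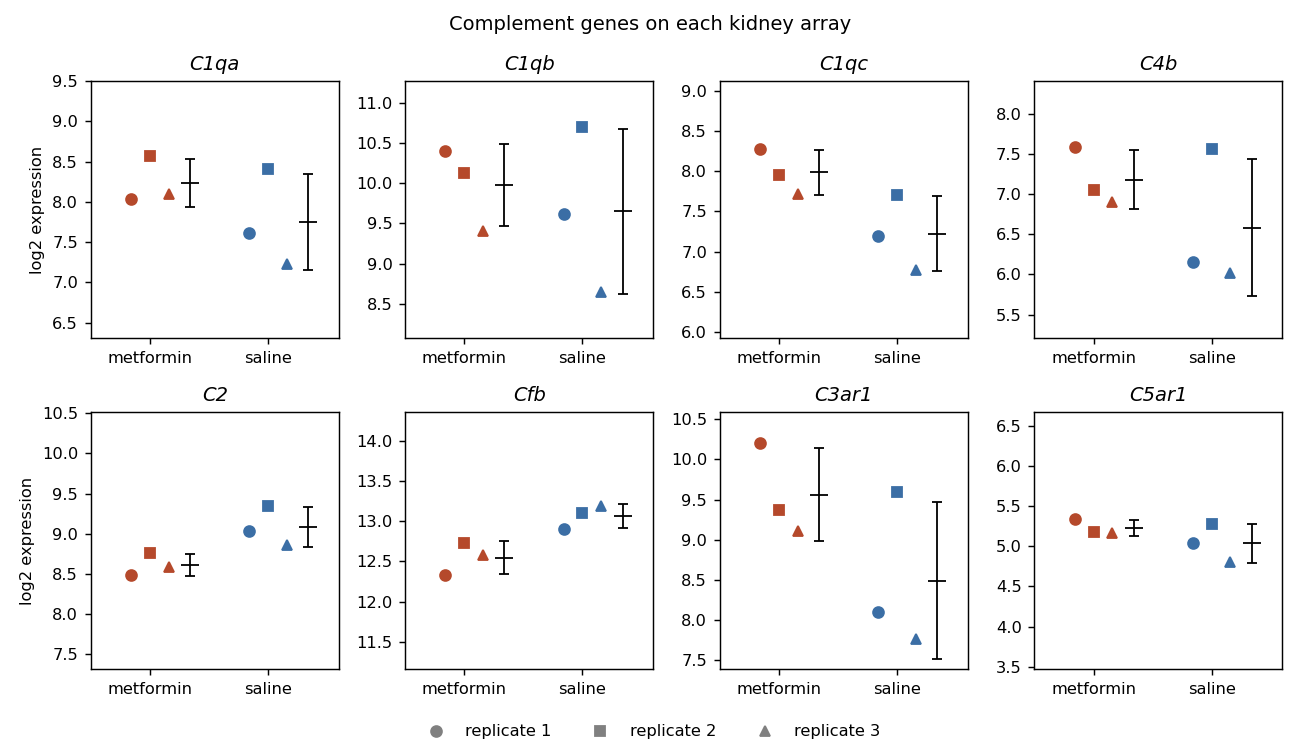
Log2 expression (vertical axes, all of the same span) of the 8 complement genes on the metformin and saline arrays, with the replicate number as the symbol and the mean and SD (n = 3 per group) as a bar to the right of each group. C2 and Cfb lie lower on every metformin array, while saline replicate 2 lies among or above the metformin arrays for C1qa, C1qb, C4b, C3ar1 and C5ar1.

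Factor B is the serine protease precursor of the alternative pathway convertase. Cfb read 12.33, 12.73 and 12.58 log2 units on metformin arrays 1 to 3, against 12.91, 13.11 and 13.19 on saline arrays 1 to 3. The groups did not overlap, with a gap of 0.18 between the highest metformin and the lowest saline value. The means were 12.55 ± 0.20 in metformin and 13.07 ± 0.15 in saline kidneys (SD, n = 3 per group), a change of -0.52 ± 0.13 (SE), or 1.43-fold lower, with a limma adjusted p of 0.0399. A block on the replicate number gave an adjusted p of 0.0235. The labels do not say what that number stands for, so blocked values here and below are an alternative to the main fit. The call ended in each of the 6 fits that left out 1 array, at adjusted p from 0.0562 without metformin replicate 2 to 0.109 without metformin replicate 1, with changes between -0.61 and -0.41.

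C2 is the protease that joins C4b in the classical convertase, and it is the close relative of factor B. Its values were 8.48, 8.76 and 8.59 in metformin kidneys, against 9.04, 9.35 and 8.86 in saline kidneys. All 3 metformin values lay under all 3 saline values, by a margin of 0.10. The change was -0.47 ± 0.15 (SE; 95% interval -0.81 to -0.13), with a limma adjusted p of 0.0674. A block on the replicate number put C2 past the threshold at an adjusted p of 0.0351, and with quantile normalization at 0.0247. It missed the threshold in every fit that left out 1 array, at adjusted p of 0.0527 to 0.189. A second cluster annotated to C2, with a mean of 4.02, was under the filter, and it read 4.23, 3.89 and 4.10 in metformin against 3.86, 4.02 and 4.0 in saline. In RefSeq's annotation of GRCm38.p6 Cfb and C2 lie next to each other on chromosome 17 with no protein-coding gene between them.

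C4b stands on the same stretch of chromosome 17 and encodes C4, the component that marks a surface for the classical and lectin pathways. It read 7.59, 7.05 and 6.89 in metformin kidneys, against 6.16, 7.56 and 6.02 in saline kidneys. Saline replicates 1 and 3 lay under every metformin value, and saline replicate 2 lay between the highest and the second highest of them. The change was 0.60 ± 0.40 (SE; 95% interval -0.33 to 1.53), with a limma adjusted p of 0.350. Without saline replicate 2 it was 1.09 at an adjusted p of 0.0179, while the other fits that left out 1 array gave adjusted p of 0.341 to 0.652. C4a, the neighbouring copy of the gene whose probes can share signal with C4b, had a change of 0.31 (adjusted p = 0.317).

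The chains of C1q are encoded by C1qb, C1qc and C1qa, which follow one another on chromosome 4 with no other annotated gene between them. C1qa read 8.03, 8.57 and 8.10 in metformin kidneys, against 7.61, 8.41 and 7.23 in saline kidneys. C1qb read 10.40, 10.13 and 9.41 in metformin kidneys, against 9.62, 10.70 and 8.64 in saline kidneys. C1qc read 8.27, 7.96 and 7.72 in metformin kidneys, against 7.19, 7.70 and 6.77 in saline kidneys. Only for C1qc did the groups not overlap, and the margin was 0.02 log2 units. For C1qb the highest of all 6 values was that of saline replicate 2. The changes were 0.48 ± 0.29 (SE) for C1qa, 0.33 ± 0.49 for C1qb and 0.76 ± 0.24 for C1qc, with limma adjusted p of 0.303, 0.697 and 0.0725. The 95% intervals ran from -0.20 to 1.17 for C1qa, from -0.82 to 1.47 for C1qb and from 0.20 to 1.33 for C1qc. A block on the replicate number put C1qc past the threshold (adjusted p = 0.0396), as it was with array weights (0.0485). It missed the threshold with arrays centred on a common median (0.110) and with quantile normalization (0.105). Fits that left out 1 array other than saline replicate 2 gave it 0.0830 to 0.206. Without saline replicate 2 C1qa had a change of 0.81 (adjusted p = 0.0353), C1qc of 1.0 (0.0192) and C1qb of 0.85 (0.156). Without saline replicate 3 the change of C1qb was -0.18 (adjusted p = 0.800).

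C3ar1 encodes the receptor of the C3 fragment C3a, a G protein-coupled receptor of myeloid cells. It read 10.21, 9.37 and 9.10 in metformin kidneys, against 8.11, 9.60 and 7.77 in saline kidneys. Metformin replicate 1 held the highest value, and saline replicate 2 lay above the other two metformin arrays. The means were 9.56 ± 0.58 in metformin and 8.49 ± 0.97 in saline kidneys (SD, n = 3 per group), a change of 1.07 ± 0.48 (SE), or 2.10-fold, with a limma adjusted p of 0.178 and a 95% interval of -0.06 to 2.20. Without saline replicate 2 the change was 1.62 at an adjusted p of 0.0185, while the other fits that left out 1 array gave adjusted p of 0.173 to 0.427. C5ar1, the receptor of C5a on neutrophils and macrophages, read 5.34, 5.17 and 5.17 in metformin kidneys, against 5.03, 5.28 and 4.80 in saline kidneys. These values are near the array medians, and the change was 0.19 ± 0.14 (SE; 95% interval -0.13 to 0.51; limma adjusted p = 0.384).

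Saline replicates differed from one another in a common order for these genes. In 7 of the 8, all but Cfb, saline replicate 2 was the highest saline array, saline replicate 1 the middle and saline replicate 3 the lowest, an order held by 19.6% of all genes tested. The order was taken from the values of these genes, so the counts of it describe them and are no test. Saline replicate 3 was the lowest of all 6 arrays in the 6 genes other than C2 and Cfb, beside 20.0% of all genes. Without saline replicate 2, limma called C1qa, C1qc, C4b and C3ar1 higher in metformin kidneys and 0 lower, where it called 8.28% of all genes higher and 9.67% lower. Cfb then had an adjusted p of 0.0704. When replicate numbers were blocked, 1 of the 8 rose and 2 fell, beside 8.81% and 11.0% of all genes.

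**Figure D2:**
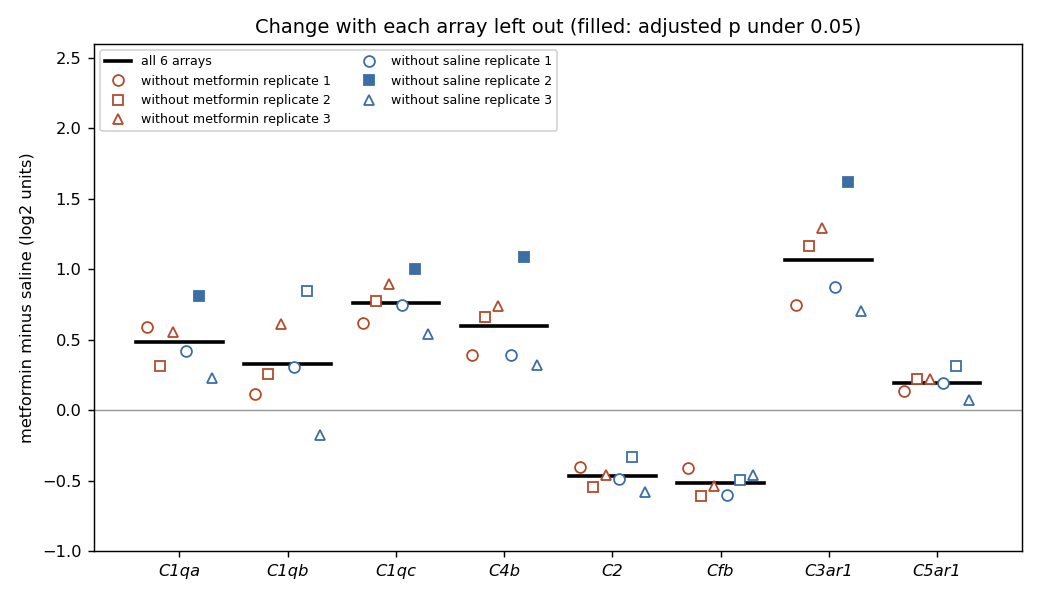
Change of each gene, metformin minus saline in log2 units (vertical axis), with all 6 arrays (black line) and with 1 array left out (symbols, filled where the adjusted p was under 0.05). The 4 filled symbols are those of C1qa, C1qc, C4b and C3ar1 without saline replicate 2, and the change of C1qb is below 0 without saline replicate 3.

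Macrophage markers and fibroblast markers varied over the arrays alongside the C1q genes. Of 26 listed macrophage genes 23 were tested and 21 of them had a change above 0, with a median change of 0.47. Of the 23, 1 rose and 0 fell, beside 6.71% and 9.08% of all genes. Lyz2, the macrophage lysozyme, rose by 1.99 (limma adjusted p = 0.0337), and Maf, a transcription factor also present in other kidney cells, had the lowest change of the list at -0.27 (adjusted p = 0.114). The mean level of the list lay between 8.74 and 9.10 log2 units on metformin arrays and between 7.85 and 8.86 on saline arrays, and none of its genes with a cluster fell under the filter. Set against the 6-array mean of each gene, the list deviated on average by 0.49, 0.30 and 0.14 on metformin arrays 1 to 3, against -0.43, 0.26 and -0.76 on saline arrays 1 to 3. The mean of C1qa, C1qb and C1qc deviated by 0.43, 0.42 and -0.06 on the metformin arrays, against -0.33, 0.46 and -0.92 on the saline arrays. Of 12 listed fibroblast genes 11 were tested, 7 of them above 0, and the list deviated by 0.31, 0.35 and 0.04 on the metformin arrays, against -0.20, 0.43 and -0.93 on the saline arrays. Its median change was 0.40, with mean levels of 9.80 to 10.12 in metformin and 8.84 to 10.20 in saline kidneys. Of the 11, 1 rose and 0 fell, beside 6.71% and 9.08% of all genes. That gene was the collagen Col1a1, which rose by 1.65 (limma adjusted p = 0.0404), the highest change of the list. The other 4 of the 11 were below 0, and Dcn had the lowest change at -0.58 (adjusted p = 0.277). The means of the macrophage list, the fibroblast list and the C1q chains alike put saline replicate 2 among or above the metformin arrays and saline replicate 3 lowest. Single genes could differ: C1qc, Lyz2 and Col1a1 had saline replicate 2 under every metformin array. The part of macrophage or fibroblast content in the C1q, C4b and receptor values was not tested. Neutrophil markers had 7 of 12 genes under the filter, S100a8 among them, and the other 5 had a mean level of 5.0 to 5.17 on metformin and 4.93 to 5.0 on saline arrays. Lymphocyte markers, 11 of 12 tested, had a median change of -0.01. Their mean level was also low, close to the array medians, at 4.89 to 5.03 on metformin and 4.87 to 4.99 on saline arrays.

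Proximal tubule and endothelial markers were mostly lower in metformin kidneys, as were C2 and Cfb. Of 18 listed proximal tubule genes 17 were tested, all 17 had a change below 0 and the median change was -0.83. Of the 17, 6 fell, beside 9.08% of all genes. Among them Slc6a19, an amino acid transporter, fell by 1.33 (limma adjusted p = 0.0327). The list deviated by -0.82, -0.32 and -0.03 on metformin arrays 1 to 3, against 0.38, 0.17 and 0.62 on saline arrays 1 to 3, with mean levels of 14.55 to 15.34 in metformin and 15.53 to 15.98 in saline kidneys. Cfb deviated by -0.48, -0.08 and -0.23 on the metformin arrays, against 0.10, 0.30 and 0.38 on the saline arrays. For both the lowest array was metformin replicate 1 and the highest saline replicate 3, while the order of the other arrays differed. The part of tubule content in the value of Cfb was not tested. C2 deviated by -0.36, -0.09 and -0.26 on the metformin arrays, against 0.19, 0.50 and 0.01 on the saline arrays, so that its highest array was saline replicate 2. Of 10 listed endothelial genes 9 were tested, 7 of them below 0, with a median change of -0.37. Of the 9, 1 fell, beside 9.08% of all genes. That gene was Tek, the angiopoietin receptor, which fell by 0.45 (limma adjusted p = 0.0367). That list deviated by -0.30, -0.06 and -0.09 on the metformin arrays, against 0.30, 0.28 and -0.13 on the saline arrays, with mean levels of 10.67 to 10.91 in metformin and 10.84 to 11.27 in saline kidneys. Like C2, Cfb and the proximal tubule list, it read lowest on metformin replicate 1. Its highest array was saline replicate 1, unlike that of C2. Adipocyte markers were also lower in metformin kidneys, with 3 of 13 tested past the threshold, beside 9.08% of all genes. Their median change was -1.29, with mean levels of 6.20 to 6.36 in metformin against 6.84 to 8.70 in saline kidneys. The adipocyte list deviated by -0.87, -0.76 and -0.71 on the metformin arrays, against 0.94, 1.63 and -0.23 on the saline arrays. It too read lowest on metformin replicate 1. Its saline arrays had the order seen in C2 and in the other complement genes apart from Cfb. Unlike in the C1q genes, C4b and the receptors, saline replicate 3 stayed above the metformin arrays. The part of endothelial or adipocyte content in the complement values was not tested either.

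**Figure D3:**
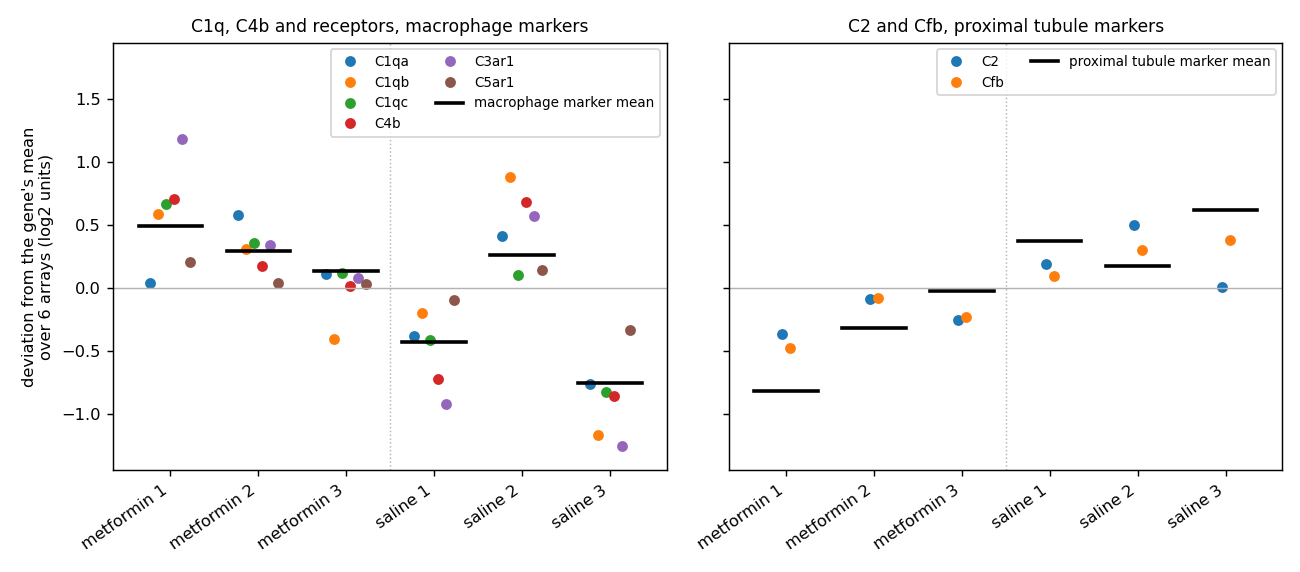
Deviation of each gene from its mean over the 6 arrays (vertical axis, log2 units) on metformin arrays (left of the dotted line) and saline arrays (right of it), with the mean deviation of the macrophage markers (left panel) or the proximal tubule markers (right panel) as black lines. In the left panel every gene lies above 0 on saline replicate 2 as well as on metformin replicates 1 and 2, and in the right panel every metformin point lies below 0.

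Genes of injured tubules and of acute inflammation also had their highest saline mean on replicate 2 and the lowest mean of all 6 arrays on saline replicate 3. All 14 tubule injury genes tested had a change above 0 (median 0.78), and 0 passed the threshold, where 6.71% of all genes rose. They deviated by 0.98, 0.56 and -0.27 on metformin arrays against -0.42, 0.25 and -1.10 on saline arrays. Of 22 tested acute phase and inflammatory genes 18 were above 0, with a median change of 0.17. Of the 22, 1 rose, beside 6.71% of all genes. That gene was Nfkbiz, a nuclear regulator of NF-kB, which rose by 1.56 (limma adjusted p = 0.0428). Hp had the lowest change of the list at -0.76 (adjusted p = 0.334). The acute phase genes Saa1, Saa2 and Lbp had changes of 0.07, 0.05 and 0.01, and Orm1 of -0.34. Il6, Ifng, Osm and Saa3 were under the filter.

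Over the 6 arrays the genes nearest in profile to the mean of the C1q chains, by root mean square difference of deviations among 15113 named genes, were Hspg2, Abca1, Casp4, Timp1 and Tyrobp, at 0.07 to 0.09 log2 units. Hspg2 encodes perlecan of the basement membrane, Abca1 a cholesterol exporter, Casp4 an inflammatory caspase, Timp1 a protease inhibitor and Tyrobp a signalling adaptor of myeloid cells. Their changes were 0.53 to 0.65, with none past the threshold. Nearest to C3ar1, a search added after its values were seen, were Vcam1 at 0.14, Lcn2, Thbs1, Osmr and Itgam, the last the chain of a complement receptor. Vcam1 and Lcn2 are on the tubule injury list. A search for the mean of C2 and Cfb was added in the same way. It gave Pigo, Vps11, Rpl10-ps1, Rpl10-ps6 and Sgpl1, at 0.04 to 0.05, none of them a listed proximal tubule or endothelial marker.

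The promoters of C1qb, C1qc, C3ar1 and C5ar1 are shown because these genes shared the order of the saline arrays and have a window in the table. The windows come from RefSeq on GRCm38.p6, each 300 bases on the minus strand, read 5′ to 3′ along the gene from 250 bases before its start. They lie at chr4:136886151-136886450, chr4:136892865-136893164, chr6:122856108-122856407 and chr7:16259289-16259588. Capitals mark matches to the motifs searched, on both strands: GAGGAA, the core bound by the myeloid factor PU.1, TTCNNNGAA for STAT factors, and 1 consensus form each of the NF-kB element and the interferon-stimulated element.
C1qb: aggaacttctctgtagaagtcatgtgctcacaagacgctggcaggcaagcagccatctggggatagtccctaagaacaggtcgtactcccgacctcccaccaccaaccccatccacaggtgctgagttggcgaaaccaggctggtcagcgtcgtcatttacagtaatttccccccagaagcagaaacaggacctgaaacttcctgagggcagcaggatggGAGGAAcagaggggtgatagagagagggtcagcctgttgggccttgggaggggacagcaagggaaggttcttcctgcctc
C1qc: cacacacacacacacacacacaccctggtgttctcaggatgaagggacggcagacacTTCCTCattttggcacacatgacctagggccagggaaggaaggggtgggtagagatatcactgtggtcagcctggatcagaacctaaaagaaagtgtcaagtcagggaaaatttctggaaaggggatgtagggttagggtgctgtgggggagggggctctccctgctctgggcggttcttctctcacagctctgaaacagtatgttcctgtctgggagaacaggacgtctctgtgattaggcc
C3ar1: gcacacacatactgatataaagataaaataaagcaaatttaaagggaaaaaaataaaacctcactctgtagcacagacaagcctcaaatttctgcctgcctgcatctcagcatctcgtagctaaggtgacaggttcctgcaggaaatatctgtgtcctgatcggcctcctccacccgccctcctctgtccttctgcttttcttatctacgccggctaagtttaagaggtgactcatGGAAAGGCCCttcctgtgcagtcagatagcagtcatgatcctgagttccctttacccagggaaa
C5ar1: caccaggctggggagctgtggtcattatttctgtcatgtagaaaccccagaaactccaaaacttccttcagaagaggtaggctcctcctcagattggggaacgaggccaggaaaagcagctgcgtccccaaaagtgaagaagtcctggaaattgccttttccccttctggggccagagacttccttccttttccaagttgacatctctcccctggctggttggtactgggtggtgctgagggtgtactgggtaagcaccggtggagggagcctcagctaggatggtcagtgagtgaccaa
The C1qb window holds the PU.1 core at -30 to -25 from the start, and the C1qc window holds it on the opposite strand at -193 to -188, as TTCCTC. Of all 32851 windows of this length 28.3% hold that motif. The C3ar1 window holds the NF-kB letters on the opposite strand at -14 to -5, as do 1.63% of all windows in either direction. The STAT letters are in 8.30% and the interferon letters in 3.44% of all windows, and in none of these 4. The C5ar1 window holds none of the letters searched. No match overlaps another, and the matches are descriptions of letters only.

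Across the wider pathway 6 genes passed the threshold, 3 of them regulators. Of 57 listed complement genes 52 had a cluster and 46 were tested, of which 1 rose and 5 fell, beside 6.71% and 9.08% of all genes. The median change of the 46 was 0.01, against 0.02 for all genes, and the groups did not overlap in 15 of 46, beside 37.3% of all genes. When replicate numbers were blocked, 4 rose and 6 fell, beside 8.81% and 11.0% of all genes. Without saline replicate 2 there were 9 higher and 6 lower, Cfp, Itgam and Itgb2 being among the higher, beside 8.28% and 9.67% of all genes. When metformin replicate 1, metformin replicate 2 or saline replicate 1 was left out 3 calls were left each time, where all genes had 1249, 1368 and 842 calls in place of 3489. Hc, which encodes C5, and C9 of the lytic pore were under the filter, as were Fcnb, Vsig4, C4bp and Cpn2. Factor D (Cfd), C1s1 and C1s2, for example, had no cluster with a single symbol and were not analysed here.

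Cd59a, a regulator that protects cells by blocking insertion of the lytic pore, had the lowest adjusted p of the pathway list. It read 11.37, 11.59 and 11.52 in metformin kidneys, against 12.89, 12.78 and 12.59 in saline kidneys. The groups were 1.01 log2 units apart at their nearest, and the gene fell by 1.26 ± 0.11 (SE), or 2.40-fold, with a limma adjusted p of 0.00676. Its paralog Cd59b fell by 0.66 (adjusted p = 0.0167), and probes of the pair can share signal. Cpn1, the carboxypeptidase N subunit that inactivates C3a and C5a, read 12.93, 13.08 and 13.12 in metformin kidneys, against 14.02, 13.89 and 13.67 in saline kidneys, a fall of 0.82 ± 0.12 (SE; limma adjusted p = 0.0093). The calls of Cd59a, Cpn1 and C1rl held in all 6 fits that left out 1 array, and that of Cd59b ended in 3, those without metformin replicate 1 (0.0560), metformin replicate 2 (0.0562) and saline replicate 1 (0.0699). Of 13 regulators tested 0 rose, 3 fell and 10 did not pass, beside 6.71% higher and 9.08% lower among all genes. Clu, clusterin, an inhibitor of the lytic complex and an injury marker, lay higher on every metformin array with a change of 1.0 (adjusted p = 0.0592; blocked on replicate number, 0.0267). Csmd1 and Cd46 had changes of 0.27 (adjusted p = 0.118) and 0.23 (0.146), and Cd55 of -0.12 (0.460).

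Among the 17 genes of initiation, C1rl, a protease related to C1r, was the only one past the threshold. It read 7.35, 7.38 and 7.62 in metformin kidneys, against 8.48, 8.37 and 8.67 in saline kidneys, and fell by 1.05 ± 0.12 (SE; limma adjusted p = 0.00735). C1ra and C1rb, close copies with nearly equal values on the array, had changes of -0.11 (adjusted p = 0.740) and -0.15 (0.629). Of the alternative pathway Cfp, properdin, the stabiliser of the convertase that factor B forms, had a change of 0.74 (adjusted p = 0.0767; blocked on replicate number, 0.0418), opposite in sign to that of Cfb.

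Of 5 genes of the terminal complex none passed the threshold, and 2 had an unadjusted p under 0.05, beside 32.1% of all genes. C8a, a chain of C8, read 7.67, 8.89 and 9.25 in metformin kidneys, against 9.91, 9.19 and 10.92 in saline kidneys, a change of -1.40 ± 0.51 (SE; limma adjusted p = 0.107, and 0.0468 without saline replicate 2). The groups overlapped in 1 array on each side, metformin replicate 3 and saline replicate 2. C8g, another chain of C8, had a change of -0.41 (adjusted p = 0.101) and was called lower without saline replicate 2 (0.0192), with arrays centred on a common median (0.0464) and with quantile normalization (0.0403). Of the 9 receptors tested 1 rose and 0 fell, beside 6.71% and 9.08% of all genes. Itgax, the CD11c chain of complement receptor 4, read 7.08, 7.07 and 7.01 in metformin kidneys, against 6.28, 6.76 and 6.07 in saline kidneys, and rose by 0.68 ± 0.17 (SE; limma adjusted p = 0.0379). The call was kept without saline replicate 2 (0.0100) and ended in the other 5 such fits, at adjusted p from 0.0764 without saline replicate 3 to 0.127 without saline replicate 1. It also ended when arrays were centred on a common median (0.0696) or quantile-normalized (0.0726), and with either scaling 0 of the 46 pathway genes were called higher. Itgam, the CD11b chain of complement receptor 3, had a change of 0.93 (adjusted p = 0.146, and 0.0183 without saline replicate 2). Itgb2, the beta chain they share, had a change of 0.37 (0.197), and C1qbp, a C1q-binding protein found mainly in mitochondria, of -0.34 (0.149). Both integrin alpha chains are also macrophage genes, and Itgam read 7.55 on saline replicate 2 against 6.33 and 6.19 on the other saline arrays, the order of the saline arrays seen in C4b and C3ar1.

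**Figure D4:**
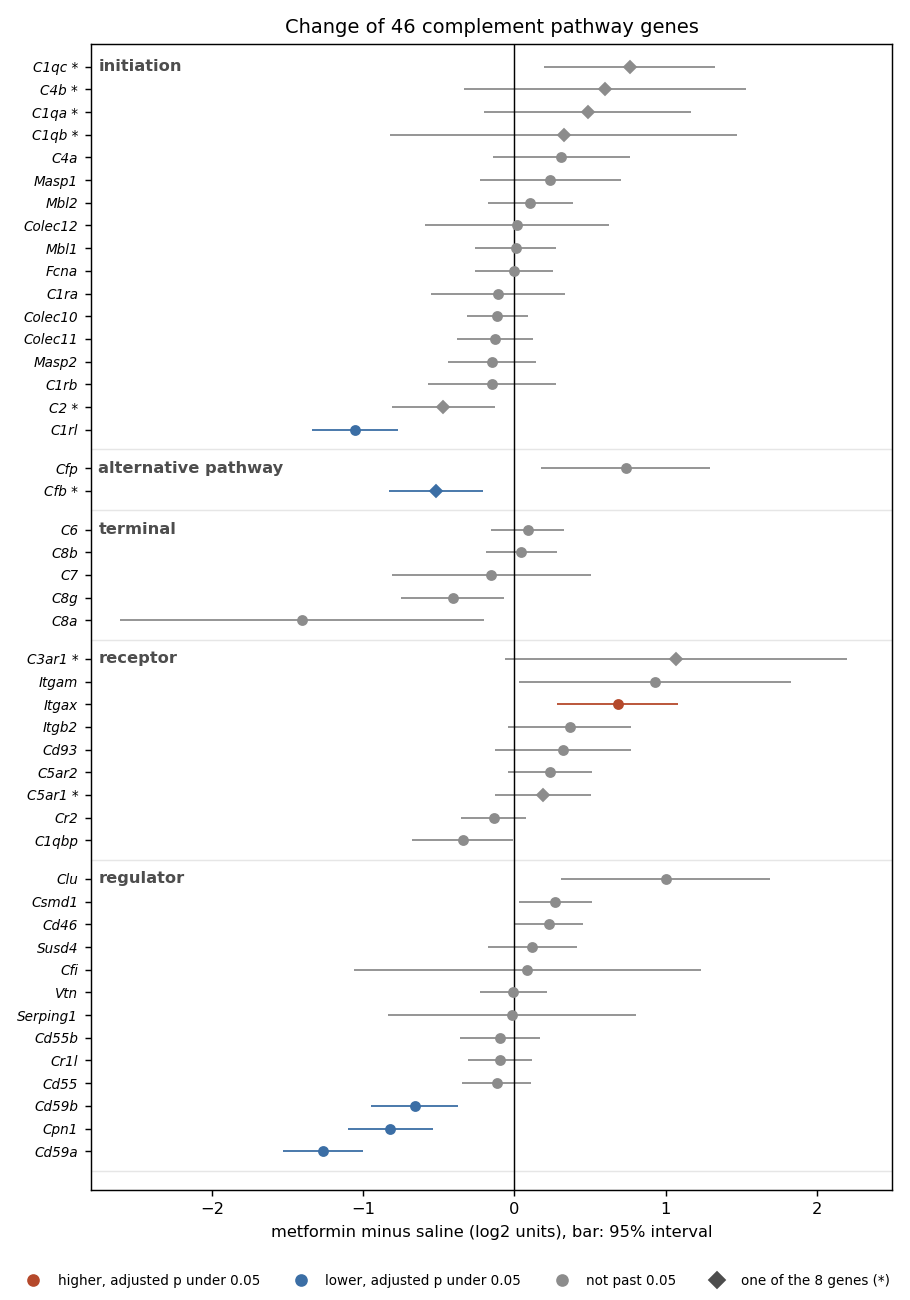
Change of the 46 tested complement pathway genes, metformin minus saline in log2 units (horizontal axis), with 95% limma intervals, grouped by role. Coloured points passed an adjusted p of 0.05: Itgax above 0, and C1rl, Cfb, Cd59b, Cpn1 and Cd59a below 0. The 8 genes described first are drawn as diamonds.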

How the data were processed

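Total RNA of snap-frozen kidneys was labelled with biotin and hybridised to 6 single-colour arrays, 1 per mouse, 3 metformin and 3 saline, labelled as biological replicates. The authors deposited 1 log2 value per transcript cluster and array; the submitters' processing notes name RMA and Transcriptome Analysis Console 4.0, with no variant or settings. The values reach 19.93, above what a 16-bit scanner can record on a log2 scale, so folds hold on the deposited scale. The number of arrays, not a read depth, limits precision.

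Of 65956 clusters, 30604 had 1 platform symbol, 2146 several and 33206 none listed. Symbols were updated by Entrez number through RefSeq GRCm38.p6 (22818 matched, 827 changed). The 33.3% of clusters with the lowest means were left out, and the cluster with the highest mean was kept per gene. limma 3.58.1 in R 4.3.3 (lmFit, eBayes) tested 22086 genes, two-sided, without covariates, and was tested on simulated data. No set test was run.

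The genes and lists were chosen with earlier results of these data known. Named genes were the 8 complement genes, pathway genes past the threshold and up to 4 others per role by p, up to 3 genes per marker list by change, and the 5 nearest profiles to C1q; a profile of C3 could not be taken, and other genes named were chosen after their values were seen. Alternatives were a replicate block, leaving out each array, array weights, quantile normalization, median-centring, averaging a gene's clusters, no filter or one at the median, and eBayes with trend and robust options. Across genes, the deviations of same-numbered arrays from their group means correlated at 0.118, 0.145 and 0.541 for replicates 1, 2 and 3, which was taken as a pairing by number; metformin replicate 1 correlated more with saline replicate 2 (0.299), and the labels do not say what the number stands for.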

Additional observations from a re-analysis of the deposited data

How the results depend on the processing

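With all 6 arrays 1 of the 8 complement genes and 6 of 46 pathway genes were past the threshold. The replicate block gave 3 and 10, with C1qc at 0.76 (adjusted p = 0.0396) and C2 at -0.47 (0.0351) past it, quantile normalization 2 of the 8, with C2 at -0.62 (0.0247), and array weights 2 of the 8, with C1qc at 0.74 (0.0485). Among all 22086 genes the calls numbered 3489 with all 6 arrays, 4373 with the block, 4799 with quantile normalization and 4275 with array weights. Leaving out 1 array gave 0 to 4 of the 8 and 3 to 15 of the 46, where all genes had 842 to 3965 calls. In those fits the change of C1qa ran from 0.23 to 0.81, of C1qb from -0.18 (without saline replicate 3, the sign turned) to 0.85, of C1qc from 0.54 to 1.0, of C4b from 0.32 to 1.09, of C2 from -0.58 to -0.34, of Cfb from -0.61 to -0.41, of C3ar1 from 0.71 to 1.62 and of C5ar1 from 0.07 to 0.31. The cause of these shifts was not tested. Median-centring, both other filters, the mean over clusters and the trend and robust options changed no call among the 8 (in the wider pathway, both scalings ended the call of Itgax and added C8g), and Cfb stayed under 0.05 in them (up to 0.049995). The signs of the 8 held in every fit but the one named. Quantile normalization moved the median change of all genes to -0.10, from 0.02 as deposited, and median-centring to -0.07, so that genes called higher made up 993 of 4799 and 913 of 3626, against 1483 of 3489 as deposited.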
